A study of Mus musculus with 474 samples.

Results

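Skeletal muscle of genetically diverse mice differed widely in the transcript of Pdk4, and the animals at the ends of that range were compared here with each other. The libraries, 1 per animal, fell into 10 groups by sex and a number read as the outbreeding generation, and within each group the 5 libraries with the highest Pdk4 level were called Pdk4-high and the 5 with the lowest Pdk4-low. This gave 50 Pdk4-high and 50 Pdk4-low libraries, together 21.1% of all libraries of the series, and left 35 to 40 libraries of each group between the tails. The animals were chosen by the measured Pdk4 value, so its levels describe the tails and were not tested.

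Pyruvate dehydrogenase kinase 4, the product of Pdk4, phosphorylates and inactivates the pyruvate dehydrogenase complex, the mitochondrial enzyme that turns pyruvate from glucose into acetyl-CoA. Skeletal muscle raises Pdk4 in fasting, with high-fat feeding, after exercise and under glucocorticoids, when fatty acids replace glucose as fuel. Peroxisome proliferator-activated receptors (PPARs), which bind fatty acids, FoxO transcription factors, which are held out of the nucleus by insulin signalling, and the glucocorticoid receptor are known activators of the gene.

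The animals were Diversity Outbred mice, an outbred stock bred from a set of inbred founder strains so that each animal carries its own mosaic of founder genomes. All of them, high and low alike, received a high-fat, high-sugar diet from a young age, and no animal on another diet entered the comparison. RNA came from whole skeletal muscle, given in the study's methods as gastrocnemius. The titles gave F or M and a number (17, 18, 19, 21 or 23) that was read as the generation, an assumption for 17 and 23, which the study's methods do not name, with 45 to 50 animals per group. The study's methods describe the animals as adults at one planned age of harvest, and the fasting state and clock time at which the muscle was taken were not given in the sources used here. The muscle was bulk tissue, so fewer cells of a type and less RNA per cell cannot be told apart.

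Expected counts, the number of reads assigned to a gene by a model that splits reads matching several alleles or genes, with both mates of a pair aligned as single reads, summed to between 56.1 and 122.1 M (megacounts) in the Pdk4-high libraries (mean 80.2 ± 14.4, SD, n = 50) and to between 54.4 and 153.7 M in the Pdk4-low libraries (87.5 ± 18.99, n = 50). The difference of -7.28 M gave p = 0.0353 in a 2-sided permutation test of labels within groups, or 0.0530 adjusted over the 3 library measures tested. Transcripts encoded in mitochondrial DNA took 10.7% ± 2.03 of the counts in the high and 9.64% ± 1.399 in the low libraries, a difference of 1.07 percentage points (permutation p = 0.00286, adjusted 0.00858), and the 2 ranges overlapped. The share of the 10 most abundant genes differed by -0.132 percentage points (permutation p = 0.636). Library numbers fell into 2 stretches, which were cut here into 5 blocks of up to 96 consecutive numbers. The labels name no batch, so these blocks are an assumption. They held 14, 7, 8, 12 and 9 of the high and 11, 11, 11, 11 and 6 of the low libraries. Sex-linked transcripts went against the labelled sex in 5 libraries, all between the tails. Myh4, the fast myosin heavy chain that marks the main fibre type of this muscle, had medians of 69179 CPM (TMM-scaled counts per M counts) in the low and 68653 CPM in the high libraries.

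Pdk4 lay between 17.20 and 18.63 on the deposited variance-stabilised log2 scale (VST) in the high libraries, with a median of 17.74. In the low libraries the same values were 13.82, 16.36 and 15.67 for the lowest, the highest and the median. The libraries between the tails ran from 15.59 to 17.94 with a median of 16.82. No high library overlapped a low one. Both tails overlapped the libraries between, because the cut was made within each group and the groups differed in level. In CPM the Pdk4 median was 2381 (1699 to 4275) in the high, 1287 (570.9 to 3066) between the tails and 580.1 (152.4 to 970.98) in the low libraries. The cut fell in a continuous range. The lowest high library exceeded the next library in its group by 0.0092 to 0.14 VST units (median 0.039), and the highest low library fell short of the next one by 0.010 to 0.107 units (median 0.062). The widest group was female generation 19, whose lowest library was at 13.82 and whose highest was at 18.06.

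**Figure D1:**
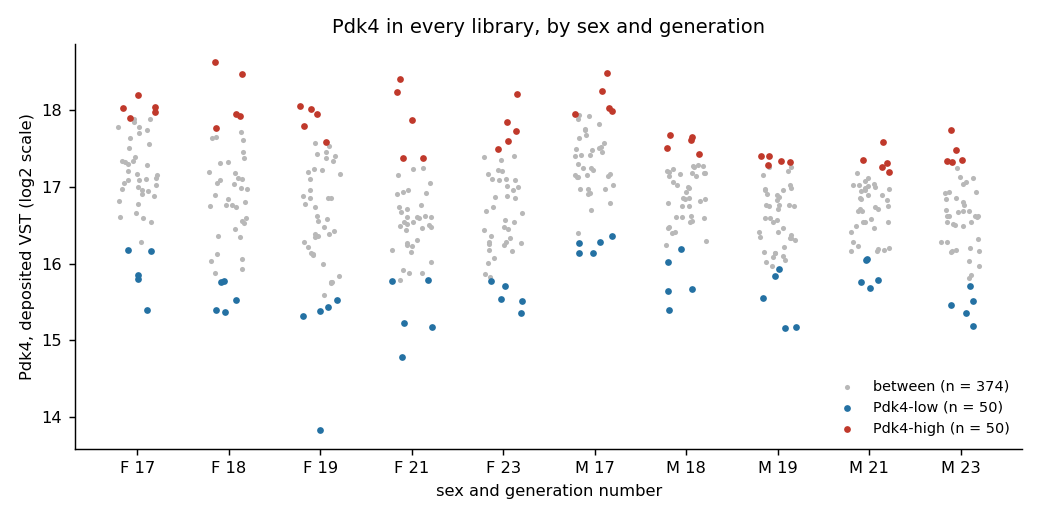
Pdk4 (deposited VST, log2 scale) in every library, by sex and generation number, with the 5 highest per group in red, the 5 lowest in blue and the libraries between them in grey. The red points run from 17.20 to 18.63 and the blue points from 13.82 to 16.36, with no gap to the grey points.

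Across the 18822 other genes with enough counts, 2808 differed between Pdk4-high and Pdk4-low animals at a Benjamini-Hochberg adjusted p under 0.05 in edgeR's quasi-likelihood test with the 10 groups as a covariate, and such genes are named called below. That was 14.9% of the genes tested. Of the calls, 1405 were higher in the high animals (7.46%) and 1403 were lower (7.45%). When libraries were scaled by their total count in place of TMM, 3069 genes were called and the share of calls that were higher went from 50.04% to 28.4%, while the median log2 difference over all genes went from 0.00 to -0.03. Most differences were small. The called genes had a median size of 0.20 in log2 units, and 1.29% of all genes tested were called and also stood 1.5-fold or more apart, 60 of them lower and the rest higher. The sign of the difference was the same in all 10 groups for 23.8% of the calls. Because the mitochondrial share differed between the tails and the total count had an adjusted p of 0.0530, the fit was repeated with the total count or the mitochondrial share as a covariate, which gave 2570 and 2301 calls, the latter sharing 1869 genes with the 2808.

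Ucp3 was the gene with the lowest adjusted p. It encodes uncoupling protein 3, a carrier of the inner mitochondrial membrane found mainly in muscle, and lies at chr7:100472990-100486432 (GRCm38). In the low libraries it ran from 72.4 to 216.6 CPM with a median of 122.9, and in the high libraries from 177.97 to 511.6 CPM with a median of 308.01. The 2 tails overlapped over the whole set, but within 9 of the 10 groups every high library exceeded every low library. The exception was male generation 18, where the lowest high library was at 205.6 CPM and the highest low library at 216.6 CPM. The log2 difference was 1.30 ± 0.08 (SE), or 2.46-fold, with an edgeR adjusted p of 5.56e-26. It was of like size in females (1.31) and males (1.28), and it was at least 1.20 within each of the 5 blocks. Ucp3 and Angptl4 were put forward as markers of these tails with results of these data known.

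The 250 bases upstream of the Ucp3 start (RefSeq, GRCm38.p6, chr7:100472741-100472990, + strand) are shown because they hold the half-site AGGTCA, the unit of the sequence that PPARs bind, 2 times, and the capitals mark both:
Ucp3: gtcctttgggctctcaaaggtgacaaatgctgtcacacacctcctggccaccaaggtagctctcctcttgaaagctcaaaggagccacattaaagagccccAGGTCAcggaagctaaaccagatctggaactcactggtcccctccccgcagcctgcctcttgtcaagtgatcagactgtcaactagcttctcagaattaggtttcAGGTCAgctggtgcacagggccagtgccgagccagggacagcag
No spaced pair of half-sites (AGGTCANAGGTCA) was present in the window. The half-site was found on either strand in 16.3% of the 32851 promoter windows searched, of 300 bases each (250 before and 50 after the start). It was in 15.7% of the 12701 tested genes with a window, 15.1% of the 1027 such genes that were higher and 14.4% of the 1046 that were lower. A gene counted if any of its windows held the sequence, and the windows of a single chromosome were not searched. The spaced pair was in 0.0396% of the windows searched and 0.0472% of the tested genes with one. It was in none of the windows of the higher or lower genes, which says little for so rare a sequence.

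Angptl4 encodes a secreted inhibitor of lipoprotein lipase that PPARs induce, and it lies at chr17:33773750-33781830. Its low libraries ran from 2.75 to 19.1 CPM with a median of 6.23, and its high libraries from 6.04 to 38.2 CPM with a median of 15.1. The tails overlapped over the whole set and stood apart within 3 groups, all 5 high above all 5 low animals in females of generations 21 and 23 and in males of generation 17. The log2 difference was 1.25 ± 0.13 (adjusted p = 1.81e-12) and was positive in 10 of 10 groups. It was 1.52 in females and 0.99 in males, and the difference between the sexes was not among the interaction calls given below.

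The PPAR fuel switch list held 24 genes of fatty acid uptake, transport and activation that PPARs are known to regulate in muscle. Of these, 19 were higher in the high animals and 0 were lower, where 7.46% and 7.45% of all genes were, with a median log2 difference of 0.40 against 0.00 over all genes tested. Their summed level had a median of 3015 CPM (2163 to 4403) in the low and 3711 CPM (2739 to 5186) in the high libraries. Besides Ucp3 and Angptl4, the list included Acot2, a mitochondrial thioesterase that releases fatty acids from acyl-CoA, at 16.4 CPM (10.4 to 29.9) in the low and 29.9 CPM (13.4 to 87.6) in the high libraries. Its difference was 0.88 ± 0.09 (adjusted p = 1.73e-13). Cpt1a, one of the enzymes that admit long-chain fatty acids to the mitochondrion, rose by 0.41 ± 0.05 (adjusted p = 6.82e-10), from a median of 13.5 to one of 17.9 CPM. Cd36, the fatty acid uptake receptor, rose by 0.43 and Lpl, the lipase that frees fatty acids from circulating triglyceride, by 0.39. The main muscle isoform Cpt1b differed by 0.14. The 5 members that did not pass were Fabp3, Fabp4, Ech1, Slc22a5 and Plin2, with log2 differences from 0.02 to 0.25. All 19 calls stood with the mitochondrial share as a covariate and with total-count scaling (19 higher and 0 lower each).

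**Figure D2:**
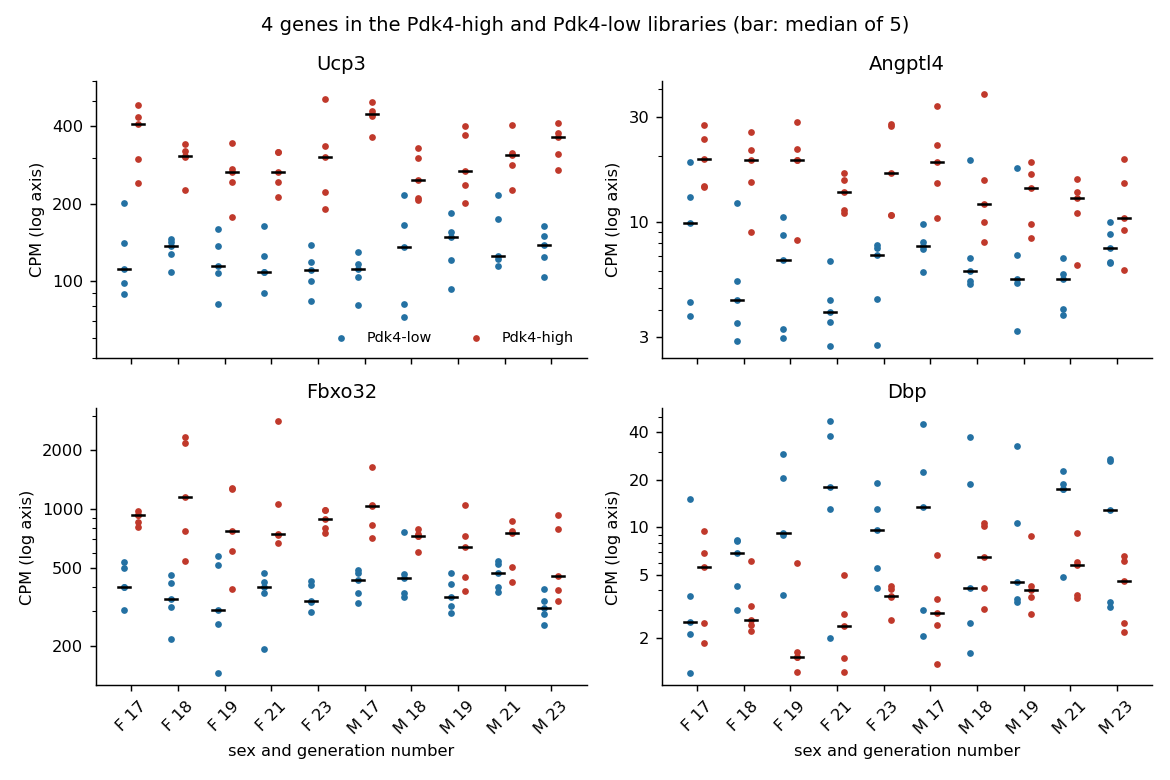
Ucp3, Angptl4, Fbxo32 and Dbp in CPM on log axes, with each point 1 animal, low animals in blue, high animals in red, and the median of the 5 animals of a group as a bar. Ucp3 separates the tails in 9 of 10 groups, Angptl4 in 3, and the low animals of Dbp spread from 1.20 to 47.1 CPM.

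Of 23 genes of mitochondrial fatty acid oxidation, 15 were higher and 0 lower, against 7.46% and 7.45% over all genes, with a median difference of 0.14. Acadl, the long-chain acyl-CoA dehydrogenase, went from 246.3 CPM (177.03 to 371.7) to 306.4 CPM (210.1 to 481.6), a log2 difference of 0.29 ± 0.05 (adjusted p = 7.57e-07). Hadhb, a subunit of the trifunctional protein that runs the later steps of each cycle, differed by 0.21 ± 0.04 (adjusted p = 3.17e-05). Both genes overlapped widely between the tails. The nuclear genes of the tricarboxylic acid cycle had 5 of 20 members higher and 0 lower, among them Sucla2 at 0.11, against 7.46% higher over all genes, and with total-count scaling Sucla2 alone was called. Respiratory complex I had 2 of 36 higher and 0 lower, or 1 and 0 with total-count scaling, with Ndufs1 at 0.11. Of the 13 proteins encoded in mitochondrial DNA, 8 were higher and 0 lower, with a median of 0.19. The median was 0.00 once the mitochondrial share was in the fit. That follows from the share being summed from transcripts of mitochondrial DNA, and is no separate result. With the mitochondrial share as a covariate, 16 fatty acid oxidation members were higher and 0 lower between the tails, while in the slopes on Pdk4 fitted in the libraries between the tails, described further on, the same covariate took the list from 7 rising members to 2.

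Genes of the pyruvate dehydrogenase complex and its control changed in both directions. Pdp1 and Pdp2 encode the phosphatases that undo the phosphorylation made by Pdk4 and its relatives. Pdp1 was at 73.4 CPM (38.2 to 160.7) in the low and 59.2 CPM (27.2 to 103.4) in the high libraries, a difference of -0.42 ± 0.08 (adjusted p = 4.75e-05). Pdp2 went the other way, from 3.28 CPM (1.82 to 7.56) to 4.65 CPM (1.78 to 14.9), a difference of 0.65 ± 0.11 (adjusted p = 4.94e-06). The catalytic subunits Pdha1 (0.14), Dlat (0.10) and Dld (0.13) and the phosphatase regulator Pdpr (0.13) were higher. The other kinases had differences of 0.08 for Pdk1, -0.05 for Pdk2 and -0.08 for Pdk3, none of them called. In all, 5 of 13 were higher and 1 lower, against 7.46% and 7.45% over all genes, and 3 were higher and 1 lower with the mitochondrial share as a covariate and likewise with total-count scaling.

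Among 21 PPAR regulators, 5 were higher and 0 lower, beside 7.46% and 7.45% over all genes, or 4 higher and 2 lower with total-count scaling. Ppargc1a, the coactivator that raises mitochondrial and fatty acid genes, was highest in difference, at 46.2 CPM (27.5 to 208.4) in the low and 77.9 CPM (26.6 to 268.3) in the high libraries. That was 0.73 ± 0.13 (adjusted p = 1.83e-05), positive in 10 of 10 groups, with tails that overlapped nearly throughout. Lpin1, its partner and a phosphatidate phosphatase, differed by 0.36, the nuclear receptor Esrrg by 0.31, Ppara by 0.25 and the deacetylase Sirt1 by 0.24. Ppard, the PPAR best known in muscle, was at a median of 23.5 CPM in the low and 23.3 CPM in the high libraries (log2 difference -0.02 ± 0.05, not called).

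Of 18 lipid droplet and lipolysis genes, 7 were higher and 2, G0s2 and Hilpda, were lower, or 4 and 2 with total-count scaling, and 9 did not pass, beside 7.46% higher and 7.45% lower over all genes. Pnpla2, the first lipase of triglyceride breakdown, rose by 0.43 ± 0.07 (adjusted p = 5.04e-06), and the droplet coat proteins Plin4 and Plin5 rose by 0.46 and 0.54. G0s2, which binds and inhibits that lipase, fell by 1.09 on the log2 scale (SE 0.17, adjusted p = 1.54e-06), from a median of 12.6 CPM (3.23 to 41.3) to one of 5.83 CPM (0.459 to 20.6). Hilpda, another inhibitor of the lipase, fell by 0.34.

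The FoxO and atrophy list held 29 genes, among them those that FoxO factors induce during muscle wasting. Of these, 19 were higher and 1, Foxo6, was lower, against 7.46% and 7.45% over all genes, with a median difference of 0.33. Fbxo32 encodes atrogin-1, a ubiquitin ligase subunit that rises in wasting muscle. Its low libraries ran from 145.2 to 767.04 CPM (median 393.3) and its high libraries from 337.2 to 2827 CPM (median 781.9). The tails overlapped, the log2 difference was 1.14 ± 0.11 (adjusted p = 2.69e-14), and it was positive in 10 of 10 groups and between 1.02 and 1.35 in each of the 5 blocks. Of the blocks taken alone, only block 3 gave a call for Fbxo32 (edgeR adjusted p = 0.0147). Trim63, which encodes the ligase MuRF1 that targets myosin, ran from 125.6 to 343.7 CPM (median 182.8) in the low and from 160.8 to 2412 CPM (median 363.9) in the high libraries, a difference of 1.26 ± 0.15 (adjusted p = 1.53e-10). Foxo1 itself rose by 0.82 ± 0.12 (adjusted p = 3.27e-07) and Foxo3 by 0.35. Ulk1, Gabarapl1 and Bnip3, which act in autophagy, rose by 0.37, 0.62 and 0.33, while Map1lc3a, Becn1 and Atg12 had differences from -0.05 to -0.01 and were not called.

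A single library held the top of several of these genes. DO349, the female of generation 21 with the highest Pdk4 of its group, had 2827 CPM of Fbxo32 and 2412 CPM of Trim63, and its summed FoxO and atrophy level of 9817 CPM compared with 8555 CPM in the next high library and a low maximum of 2957 CPM. Without it, 18 members were higher and 1 lower, Fbxo32 was at 1.08 and Trim63 at 1.16, and 2622 genes were called in all, of which 2567 were among the 2808.

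The 250 bases upstream of Trim63 (RefSeq, GRCm38.p6, chr4:134314870-134315119, + strand) are shown because they hold the core FoxO sequence GTAAACA in its reverse form, in capitals:
Trim63: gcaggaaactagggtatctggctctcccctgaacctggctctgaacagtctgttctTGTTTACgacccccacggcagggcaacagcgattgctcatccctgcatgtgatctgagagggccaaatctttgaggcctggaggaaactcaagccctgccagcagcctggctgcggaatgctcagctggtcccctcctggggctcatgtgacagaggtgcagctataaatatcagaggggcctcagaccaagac
GTAAACA on either strand was present in 3.65% of the 32851 windows, in 3.24% of the 12701 tested genes with a window, in 7.01% of the 1027 such genes that were higher and in 2.29% of the 1046 that were lower. These shares are a description of letters, not of binding. The window of Pdk4 on chromosome 6 held none of the 4 motifs searched.

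Of 21 glucocorticoid target genes, 13 were higher and 0 lower, against 7.46% and 7.45% over all genes, with a median difference of 0.45. Zbtb16, a transcription factor gene strongly induced by glucocorticoids, was at 124.1 CPM (63.5 to 239.4) in the low and 175.6 CPM (90.99 to 346.6) in the high libraries, a difference of 0.49 ± 0.07 (adjusted p = 2.33e-07). Cebpd rose by 1.06 ± 0.19, Ddit4, an inhibitor of mTORC1, by 1.15 ± 0.25, and the receptor chaperone Fkbp5 by 0.69 ± 0.13. Klf9 and Klf15 rose by 0.31 and 0.46. The receptor gene Nr3c1 (-0.05), Per1 (0.10) and Dusp1 (0.01) did not pass. Without DO349 the list had 9 higher and 0 lower members.

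In the glucose uptake and glycolysis list, 2 of 25 were higher and 4 lower, or 2 and 9 with total-count scaling and 2 and 1 with the mitochondrial share as a covariate, with a median of -0.03, beside 7.46% higher and 7.45% lower over all genes. Txnip, a brake on glucose uptake, rose by 0.28 ± 0.06 (adjusted p = 0.000244), and its relative Arrdc4 fell by 0.34 ± 0.07 (adjusted p = 0.000177). The transporter Slc2a4, which carries insulin-driven glucose uptake, had medians of 399.5 and 392.95 CPM in the low and high libraries (log2 difference -0.02 ± 0.03, not called). Of 21 insulin signalling genes 5 were higher and 0 lower, or 5 and 2 with total-count scaling, among them the receptor Insr (0.25), its substrate Irs2 (0.56) and Foxo1, and the first 2 and Foxo1 are also in the FoxO list. Glycogen metabolism had 1 higher (Ugp2, 0.24) and 1 lower (Ppp1r3b, -0.45) of 18, or 1 and 3 with total-count scaling.

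In lipogenesis, 5 of 19 genes were lower and 1 higher, beside 7.45% and 7.46% over all genes, or 2 lower and 1 higher with the mitochondrial share as a covariate. Scd2, a fatty acid desaturase, went from 39.03 CPM (24.1 to 126.7) to 27.4 CPM (12.6 to 61.3), a difference of -0.57 ± 0.09 (adjusted p = 2.12e-06). The desaturases Fads1 and Fads2 fell by 0.16 and 0.43 and the regulator Srebf1 by 0.33. The 1 member that rose was Acacb (0.18), whose product makes the malonyl-CoA that holds back fatty acid entry to mitochondria. In cholesterol synthesis 6 of 21 were lower and 0 higher. They included Srebf2 (-0.22), the transcription factor gene that drives this pathway, and the enzymes Mvd (-0.37) and Sqle (-0.29). Ketone metabolism had 1 of 8 higher (Acat1, 0.10) and branched-chain amino acid breakdown 4 of 20 higher and 1 lower, in the range of -0.10 to 0.17. With total-count scaling the first had 0 higher and 1 lower and the second 1 and 1.

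**Figure D3:**
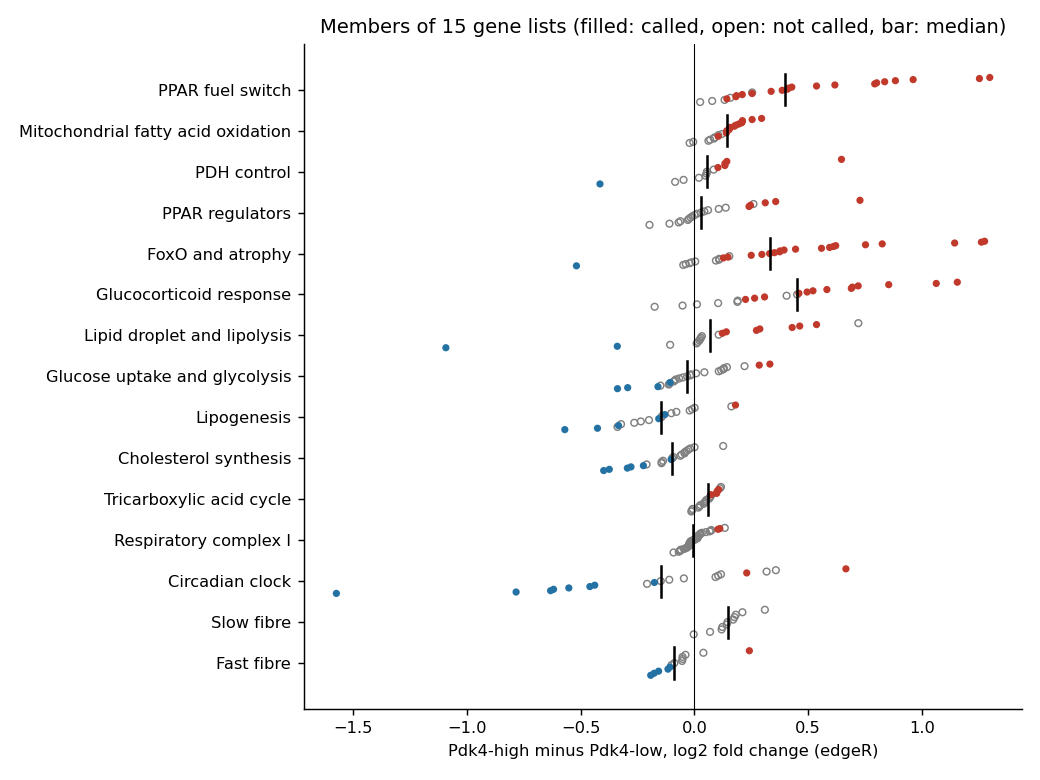
High minus low log2 difference of every tested member of 15 gene lists, with filled points for called members (red higher, blue lower), open points for the others and a bar at each list's median. The medians run from -0.15 in lipogenesis and the circadian clock to 0.45 in the glucocorticoid list.

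Of 19 circadian clock genes, 2 were higher and 8 lower, against 7.46% and 7.45% over all genes. Dbp, a transcription factor whose transcript swings widely over the day, was lower in the high animals at 3.64 CPM (1.22 to 10.7) against 9.10 CPM (1.20 to 47.1). The difference was -1.57 ± 0.24 (adjusted p = 4.14e-07), or -0.995 in limma on the VST values. The low animals spread over the whole range and the high animals sat within its lower part, and no group kept the tails apart. The sign was the same in 9 of 10 groups, and within the blocks it ran from -2.80 to -0.18. Bhlhe40, a repressor of the clock, went from 89.4 CPM (43.7 to 191.8) to 64.4 CPM (26.96 to 112.6), a difference of -0.62 ± 0.08 (adjusted p = 3.96e-08). Ciart, Per3, Hlf and Nr1d1 fell by 0.78, 0.63, 0.46 and 0.44. Nfil3, which represses the genes that Dbp activates, rose by 0.67 ± 0.12 (adjusted p = 3.08e-05), from 48.6 to 72.2 CPM at the median. Arntl, the activator at the core of the clock, had a difference of 0.32 and was not called (adjusted p = 0.0740). The time of day at which each animal's muscle was taken was not given in the sources used here, and its part in these differences was not tested.

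The 250 bases upstream of Ciart (RefSeq, GRCm38.p6, chr3:95882229-95882478, - strand) are shown because CACGTG, the E-box read by clock activators, is present 3 times, in capitals:
Ciart: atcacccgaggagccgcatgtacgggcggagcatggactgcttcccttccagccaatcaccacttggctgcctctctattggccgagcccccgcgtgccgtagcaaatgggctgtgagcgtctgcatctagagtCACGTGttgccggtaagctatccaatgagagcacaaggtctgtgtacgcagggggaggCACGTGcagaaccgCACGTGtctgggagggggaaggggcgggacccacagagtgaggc
The E-box was in 7.15% of the windows searched and in 10.9% of the tested genes with one, and in 12.2% of those higher and 11.4% of those lower. The window of Dbp held none of the motifs searched.

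Markers of fibre types and other cells were read for the make-up of the muscle. Of 13 fast fibre genes 5 were lower and 1 higher, against 7.45% lower and 7.46% higher over all genes, in the range of -0.19 to 0.24, or 2 lower and 1 higher with the mitochondrial share as a covariate and 9 and 1 with total-count scaling. Pvalb, the calcium buffer of fast fibres, fell by 0.19, and Myh1, the myosin of type 2X fibres, rose by 0.24. None of 11 slow fibre genes was called, with 10 of them above 0, a median of 0.15 and a summed level of 3139 CPM (687.9 to 5162) in the low and 3229 CPM (1903 to 8864) in the high libraries. Adipocyte markers had 1 of 11 higher (Lipe, 0.27) and 1 lower (Lep, -1.29), with summed levels of 1431 CPM (696.2 to 3754) in the low and 1581 CPM (812.3 to 3288) in the high libraries. Car3 was the most abundant member, with medians of 1099 and 1237 CPM, so this sum mostly reads Car3 and not fat cells. Lep, the fat cell hormone leptin, was at 8.23 CPM (0.564 to 35.2) in the low and 2.78 CPM (0.0588 to 28.3) in the high libraries (adjusted p = 0.000456), while Adipoq, another defining marker of the same cells, was at -0.12 and not called. Macrophage, endothelial and fibro-adipogenic lists each had 1 of 10 members higher, Cd163 (0.34), Flt1 (0.18) and Pdgfra (0.10), and 0 lower, counts near the 7.46% over all genes. Among satellite cell markers 1 of 6, Pax7, was lower (-0.36), and the Schwann cell and erythroid lists had 0 calls of 6 each. The brown adipocyte list had 1 of 5 higher, Ppargc1a, or 2 with the mitochondrial share as a covariate, with a median of 0.72 and summed levels of 138.9 CPM (105.5 to 314.1) in the low and 166.9 CPM (107.4 to 378.2) in the high libraries. Cox7a1 was the most abundant member of this list, with medians of 78.1 and 80.99 CPM in the low and high libraries. Ppargc1a had medians of 46.2 and 77.9 CPM. The sum thus mostly reads Cox7a1 and Ppargc1a and is not a level of brown fat cells. The defining gene of the list, Ucp1, was at 0.0694 CPM (0 to 76.5) in the low and 0.110 CPM (0 to 203.3) in the high libraries. Its difference of 1.16 ± 0.88 was not called (adjusted p = 0.418), and Cidea differed by 0.72 ± 0.34 (adjusted p = 0.150). The part of brown fat cells in the other differences was not tested. Immediate-early genes, which rise within minutes of stress or handling, had 1 of 20 higher (Maff, 0.76), heat shock genes 1 of 16 lower (Hsf1, -0.11) and denervation genes 1 of 15 higher (Runx1, 0.32). With total-count scaling the adipocyte and fibro-adipogenic lists had 0 higher members, and the Schwann cell and denervation lists had 1 lower member each.

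Outside the lists, the genes with the largest differences of 1 sign in 9 or 10 groups had varied roles. Pank1 encodes a kinase that sets the rate of coenzyme A synthesis, and rose by 1.01 ± 0.08 (adjusted p = 1.08e-16), from 14.4 CPM (7.17 to 22.5) to 26.4 CPM (15.5 to 69.3). Its tails met only between 15.5 and 22.5 CPM. Tmem140, a membrane protein gene, rose by 1.30 ± 0.13 from a median of 20.7 to one of 40.2 CPM, and was at 252.1 CPM in its highest library. Tmem82 rose by 1.57 ± 0.15 at low levels, from 0.745 to 2.26 CPM, and lies next to Slc25a34, a mitochondrial carrier gene that rose by 0.80. Chac1, which degrades glutathione in the amino acid stress response, rose by 1.66 ± 0.21 (adjusted p = 5.68e-09), with tails that overlapped from 5.32 to 118.4 CPM. Cyp1b1 and Doc2b rose by 1.14 and 1.17. Gm10603 rose by 0.88, but it overlaps Ucp3 on the map, strand use in the counting was not stated, and its reads cannot be told from those of its neighbour.

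Among falling genes, Mrtfa, a serum response factor coactivator that senses actin, fell by 0.64 on the log2 scale (SE 0.06, adjusted p = 2.69e-14), from 20.3 CPM (14.3 to 30.9) to 13.8 CPM (5.46 to 22.7). Ttyh2 fell by 0.64, Cyp26b1, which breaks down retinoic acid, by 0.95, and Pthlh, a secreted hormone, by 0.69. Rtkn2, Adora1 and A530016L24Rik fell by 0.93, 0.72 and 0.64. On the VST scale, which shrinks differences of genes with few counts, limma gave Tmem82 0.82, Cyp1b1 0.59, Doc2b 0.54, Pthlh -0.30, Cyp26b1 -0.62, Rtkn2 -0.42 and A530016L24Rik -0.34, and all of these were called there. Runx1 (0.19) and Ppp1r3b (-0.20), named above, were not called on that scale, nor were 2 of the largest rises. Gdpd3 at 1.95 and Mup10 at 2.18 had 0.40 (adjusted p = 0.227) and 0.67 (adjusted p = 0.0602) in limma on the VST values, their medians were 0.513 and 0.591 CPM and 0.0300 and 0.232 CPM in the low and high libraries, and Mup10 belongs to a family of near-identical genes.

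The libraries between the tails share no animal with them and gave a second reading of the same relation. In these, the slope of each gene on the Pdk4 VST value was fitted with the group as a covariate, and 1725 genes (9.16%) were called, 878 rising (4.66%) and 847 falling (4.50%). Of the 2808 genes called high against low, 990 were called in the same direction here, which is 35.3% of the 2808 and 57.4% of the 1725, and 1 was called in the other direction. The slope had the sign of the high minus low difference in 94.3% of the 2808 and in 71.6% of all genes. Ucp3 rose by 0.58 ± 0.05 on the log2 scale per unit of Pdk4 VST (adjusted p = 7.45e-23), Angptl4 by 0.79 ± 0.08 (7.68e-17), Pank1 by 0.38 ± 0.04 (1.35e-17) and Fbxo32 by 0.48 ± 0.05 (1.51e-13). The SD of Pdk4 in these libraries was 0.379 VST units in the median group.

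Most of the lists with many calls high against low had fewer calls in these libraries, as did all genes (9.16% against 14.9%). The PPAR fuel switch list had 12 rising and 0 falling members, FoxO and atrophy 11 and 1, and glucocorticoid response 4 and 0. Over all genes 4.66% were called rising and 4.50% falling. Fatty acid oxidation had 7 rising and 0 falling members, and 2 and 0 with the mitochondrial share as a covariate, where the calls over all genes went from 9.16% to 3.54%. The clock list had more, 5 rising and 11 falling of 19. Dbp fell by 1.23 per unit (SE 0.13, adjusted p = 1.34e-15), and Arntl, which did not pass high against low, rose by 0.36 ± 0.06 (adjusted p = 1.23e-05). Cholesterol synthesis had 0 rising and 4 falling, and glucose uptake and glycolysis 1 and 6, and with the mitochondrial share as a covariate these went to 0 and 1 and to 1 and 0. Lep had a slope of -0.06 ± 0.19 (adjusted p = 0.902), so its difference high against low was not matched by a call in these libraries. Gdpd3 and Mup10 had slopes of -0.43 and -0.24, neither called and both of the opposite sign to the high minus low difference.

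**Figure D4:**
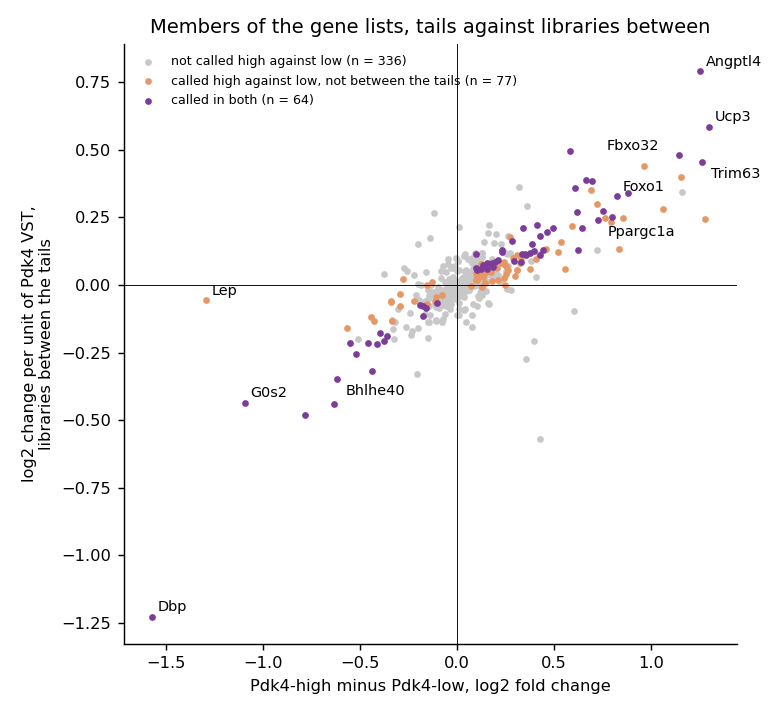
For each member of the gene lists, the high minus low log2 difference (horizontal) against its log2 change per unit of Pdk4 VST in the libraries between the tails (vertical), coloured by where it was called. Ucp3 lies at 1.30 and 0.58, Dbp at -1.57 and -1.23, and Lep at -1.29 and -0.06.

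Within females alone (25 against 25) 1979 genes were called, and within males alone 0.967% of those tested were, a contrast of counts that does not show that the sexes differ. The interaction of tail and sex, which tests the difference itself, was called for 5 genes (0.0266% of those tested). Sesn1, a stress-induced regulator of mTORC1, had medians of 26.4 CPM in low and 45.3 CPM in high females (log2 1.36) and of 17.6 and 18.2 CPM in males (0.15). The males' difference was lower by 1.21 ± 0.22 (adjusted p = 0.0103). Pdp2, the phosphatase named above, went from 3.26 to 6.31 CPM in females (1.13) and from 3.36 to 3.62 CPM in males (0.16), lower in males by 0.97 ± 0.19 (adjusted p = 0.0151). Slc43a1, an amino acid transporter, and Fas, a death receptor, rose in females by 1.37 and 0.82 with differences of 0.20 and 0.10 in males. Myod1, the transcription factor that commits cells to muscle, fell in females by 1.09, from 15.5 CPM (8.12 to 27.6) to 7.998 CPM (1.77 to 12.3), and had 0.09 in males, from 13.2 to 13.6 CPM. DO349 was the top high female of Sesn1, Pdp2 and Slc43a1, and without it Sesn1 and Pdp2 were still called (adjusted p = 0.0174 and 0.0414) and the other 3 genes were not. In limma on the VST values Sesn1 and Pdp2 were not called (adjusted p = 0.0613 and 0.0600). With 10 libraries per tail Pdp2 was not called either (edgeR adjusted p = 0.0679). For the lists, females had 19 higher and 0 lower members in the PPAR fuel switch list and males 8 and 0, and in FoxO and atrophy 20 and 1 against 5 and 0. Fatty acid oxidation had 14 higher in females and 1 in males, and glucocorticoid response 11 and 1, with 0 lower in each. Over all genes 10.5% were called in females and 0.967% in males. Of the PPAR fuel switch and FoxO and atrophy lists, Sesn1 was the 1 member among the 5 interaction calls.

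**Figure D5:**
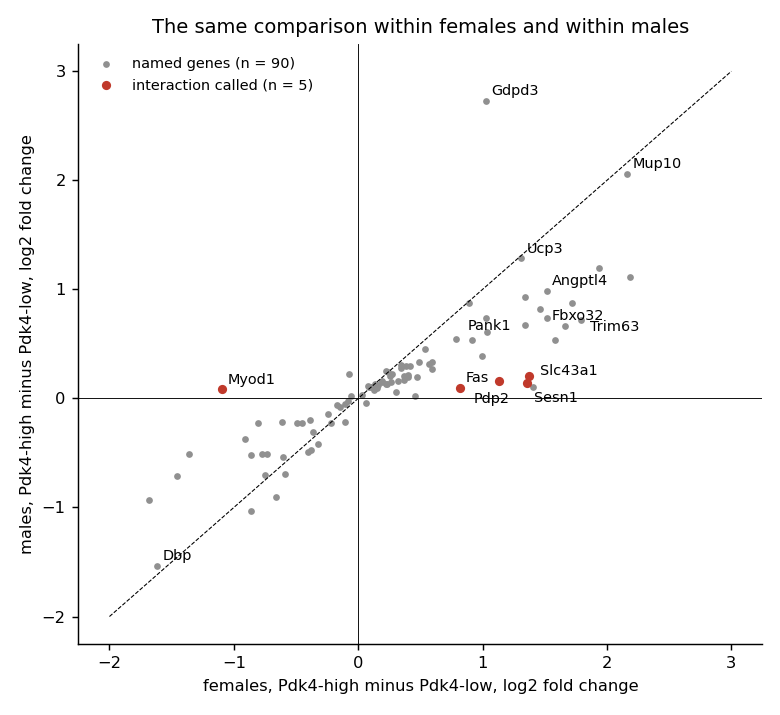
High minus low log2 difference within females (horizontal) and within males (vertical) for the 90 named genes, with the 5 interaction calls in red and the dashed line at equal differences. Ucp3 lies on the line at 1.31 and 1.28, and Sesn1, Pdp2, Slc43a1 and Fas lie near 0 in males.

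Around Pdk4 itself, 41 other tested genes started within 4 megabases on chromosome 6. Of these, 3 were higher and 2 lower in the high animals, a share no larger than the 14.9% called over all genes. Asb4, a ubiquitin ligase subunit gene at chr6:5383386-5433022 beside Pdk4, went from 15.8 CPM (6.15 to 26.5) to 20.7 CPM (12.1 to 40.9), a difference of 0.48 ± 0.07 (adjusted p = 5.96e-07) that was positive in 10 of 10 groups. It also rose across the libraries between the tails, by 0.23 per unit (adjusted p = 3.22e-05). Gm45062 and Gm44424 rose by 0.37 and 1.04, and Sem1 and Gng11 fell by 0.10 and 0.18, and none of these 4 was called there. Genotypes at this locus were not analysed here.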

How the data were processed

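RNA-seq of skeletal muscle was read from polyA libraries, 1 per animal. The authors treated paired mates as separate single-end reads, aligned these against the transcriptomes of all founder strains and deposited expected counts per gene (EMASE in GBRS, versions not given in the sources used here), together with VST scores, on a log2 scale, which the authors made with DESeq2 and corrected for batch. Genome coordinates in the deposited files were on GRCm38 per the labels. Expected counts were rounded, filtered with filterByExpr (minimum count of 10, 18823 of 20612 genes kept) and TMM-scaled over all 474 libraries. Each comparison was fitted with edgeR 4.0.16 (quasi-likelihood) with the 10 groups as a covariate, and p-values were adjusted by Benjamini and Hochberg over all genes. They rest on the spread between animals. Library measures were tested with 100000 permutations within groups. The fits were tested on simulated data. Alternatives used DESeq2 1.42.0, limma 3.58.1, other scalings, filters, covariates and tail sizes.

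The tails, markers, gene lists and tests were chosen with earlier results of these data known. The text names Ucp3 and Angptl4, the 12 protein-coding genes with the largest rise and the 12 with the largest fall among those with a mean of 1 CPM or more and the same sign in 9 or more groups, the 5 with the lowest adjusted p, and the leading called members of each list and its most abundant marker. Other list members, the genes near Pdk4 and the promoters shown were chosen after their values or matches were seen, as were the fits with the total count or the mitochondrial share and those without DO349. Some genes that meet these rules are not reported here. Lists share members, and counts of overlapping or near-identical genes are uncertain.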

Additional observations from a re-analysis of the deposited data

Results flagged for a closer look

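In 5 genes the high minus low difference of males differed from that of females in edgeR's interaction test. On the log2 scale, males minus females was 1.18 for Myod1 (adjusted p = 0.0411), -0.72 for Fas (adjusted p = 0.0411), -1.17 for Slc43a1 (adjusted p = 0.0384), -1.21 for Sesn1 (adjusted p = 0.0103) and -0.97 for Pdp2 (adjusted p = 0.0151). Without DO349, the top high female of the last 3, the values were 1.14, -0.72, -0.99, -0.999 and -0.90, with adjusted p of 0.0662, 0.0777, 0.0803, 0.0174 and 0.0414. With 10 libraries per tail the values were 0.72, -0.51, -0.89, -0.88 and -0.54, with adjusted p of 0.0501, 0.0501, 0.00148, 0.000164 and 0.0679, so Slc43a1 and Sesn1 were called. With total-count scaling Myod1 was not called (adjusted p = 0.0618) and the other 4 were. In limma on the VST values Fas was called (adjusted p = 0.0483) and the other 4 genes were not.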

How the results depend on the processing

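Against 14.9% of genes called as reported, 23.8% were called with 10 libraries per tail, 8.86% with 3, 0.967% in males alone, 1.46%, 0.101%, 0.0106%, 0.0372% and 0.255% in generations 17, 18, 19, 21 and 23 alone, and 0.122%, 0%, 0.367%, 0.00531% and 0.00531% in library blocks 1 to 5 alone, sets with other numbers of animals. Block 2 gave 0 calls with edgeR and 1248 genes at an unadjusted p under 0.05, and no other tool was run on it. Other scalings, filters, tests, covariates and rankings gave 2301 (mitochondrial share) to 3566 calls (ranked by log2 CPM), leaving out a group 2185 to 2813, and leaving out each library in turn, with limma on the VST values, 2718 to 3235 calls, or 14.4% to 17.2%. The share of calls that were higher was 50.04% as reported, 56.2% with DESeq2 size factors, 56.8% with DESeq2 and 28.4% with total-count scaling. Against 9.16% of slopes called in the libraries between the tails, the mitochondrial share as a covariate left 3.54%, and 590 of these genes were among the 1725 as reported. Total-count scaling took the rising share of these calls from 50.9% to 33.05%. The cause was not tested. Against 5 interaction calls (0.0266%) there was 1 (0.00531%) with limma on the VST values, 34 (0.181%) with DESeq2, 18 (0.0956%) with 10 libraries per tail and 2 (0.0106%) without DO349. The total count differed by -5.91 M in medians (permutation p = 0.0689) and by -5.17 M in females alone (permutation p = 0.336), by -9.40 M in males alone (permutation p = 0.0398) and by -0.117 on the log2 scale (permutation p = 0.0365). No paired analysis was possible because replicate numbers are animal numbers that no 2 groups share. With limma on the VST values, further genes of smaller difference on that scale that kept their calls were Gm10603 (0.58), Fads2 (-0.24), Maff (0.48), Ciart (-0.46), Hilpda (-0.16), Foxo6 (-0.30) and Pax7 (-0.18).

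Single genes whose log2 difference turned sign are given with that value, and none of them was Ucp3, Angptl4, Fbxo32, Pank1 or Mrtfa. In generation 17 alone, Dlat -0.035, Lipe -0.018, Pvalb 0.026, Dcn -0.011, Ndufs1 -0.040, Acadl -0.062, Acat1 -0.052, Rtkn2 0.029, Hibch -0.032, Acacb -0.00048, Myh1 -0.17, Myh4 0.10, Hadhb -0.043, Hba-a2 -0.16 and Cox7a1 -0.20. In block 4 alone, Dlat -0.064, Tnnc2 0.0056, Pmp22 0.046, Dld -0.041, Sdha -0.051, Sucla2 -0.035, Ndufs1 -0.033, Acat1 -0.054, Hibch -0.0039, Myh4 0.016 and Cox7a1 -0.048. In block 5 alone, Insr -0.0015, Mvd 0.029, Dcn -0.049, Car3 -0.35, Pdgfra -0.064, Cdh15 0.23, Slc25a44 0.016, Myh7 -0.12 and Hba-a2 -0.17. In generation 21 alone, Pmp22 0.20 and A530016L24Rik 0.00019. In block 3 alone, Pmp22 0.14, Cdh15 0.15, Ciart 0.16, Myh7 -0.0066, Lyz2 -0.38 and Hba-a2 -0.34. With total-count scaling, Dcn -0.0031 and Cox7a1 -0.020. In generation 18 alone, Dcn -0.041, Car3 -0.058, Pdgfra -0.044, Gdpd3 -0.59 and Cdh15 0.14. In generation 23 alone, Dcn -0.025 and Cdh15 0.034. In block 1 alone, Dcn -0.11, Pdgfra -0.017, Myh4 0.024 and Cox7a1 -0.14. In block 2 alone, Dcn -0.056, Sdha -0.033, Esrrg -0.0046, Car3 -0.35, Rora -0.10, A530016L24Rik 0.21 and Hba-a2 -0.67. With 10 libraries per tail, Car3 -0.031 and Cox7a1 -0.033. In females alone, Car3 -0.070. In generation 19 alone, Pax7 0.023, Maff -0.0089, Myh7 -0.32, Hba-a2 -0.24 and Cox7a1 -0.014. With cell and fibre marker scores as covariates, Cdh15 0.014 and Cox7a1 -0.014. In males alone, Cdh15 0.021 and Cox7a1 -0.046. With the mitochondrial share as a covariate, Cdh15 0.046. Without females of generation 17, Cdh15 0.0096. With limma on the VST values, Cox7a1 -0.0092. With animals ranked by log2 CPM, Cox7a1 -0.0091. Without DO349, Cox7a1 -0.0011. Without females of generation 18, Cox7a1 -0.0064. Without females of generation 21, Cox7a1 -0.00058. Without females of generation 23, Cox7a1 -0.023. Without males of generation 21, Cox7a1 -0.00097.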
